A study of Mus musculus with 6 samples.

Results

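The testes of mice that lack both Padi2 and Padi4 (DKO) were compared with the testes of mice that lack Padi2 alone (P2KO), so that the step from 1 inactivated gene to 2 could be read across the transcriptome. All genes with enough counts in the table were included, with no choice by their values: 4 of the 6 libraries of the series entered the contrast (2 DKO and 2 P2KO), and 20744 of the 55536 genes in the table were tested. Every group was on the FVB/NJ background and the mice were 4 months old, with 2 animals and 2 libraries per genotype. The WT mice were FVB/NJ. In the P2KO mice the part of the first exon of Padi2 that follows the start codon had been replaced by a LacZ-Neo cassette, and the DKO mice carry this same allele on both chromosomes. The DKO mice come from P2KO embryos injected with Cas9 mRNA and a guide RNA against exon 1 of Padi4. They descend from 1 edited founder with a deletion of 4 nucleotides that shifts the reading frame, so DKO stands for 1 line and any other difference between the DKO and P2KO colonies travels with the genotype.

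Peptidylarginine deiminases convert arginine residues of proteins to citrulline, which removes a positive charge. PAD2 and PAD4 both modify histones in the nucleus, and PAD2 is known as a partner of steroid receptors. The genes of the family stand side by side on mouse chromosome 4. In the testis, germ cells develop inside tubules among Sertoli cells, and Leydig cells between the tubules make testosterone. Bulk RNA holds all of these cells together, so fewer cells of a type and less RNA per cell cannot be told apart.

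The part of the Padi4 gene that the guide RNA was aimed at is shown because it is the only designed difference between the 2 genotypes. In GRCm38 the gene has 16 exons in its coding transcript and exon 1 spans chr4:140774089-140774236 on the minus strand. The coding part of this exon, chr4:140774089-140774180, has 92 bases, and the capitals mark the start codon.
Padi4 exon 1, coding part: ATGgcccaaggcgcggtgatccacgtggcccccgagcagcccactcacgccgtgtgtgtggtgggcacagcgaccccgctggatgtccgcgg

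Libraries held from 21939393 to 27306679 counts on genes. Values below are normalised counts, that is, counts over each library's TMM-scaled size, with the 6 sizes taken about their geometric mean, and they are not per length, so levels are compared between libraries and not between genes. The test was the quasi-likelihood F test of edgeR, fitted to all 6 libraries, with Benjamini-Hochberg adjustment over the 20744 tested genes. A gene is referred to as called when its adjusted p is under 0.05. Changes are DKO minus P2KO on the log2 scale unless another pair is named, and the value after ± is the standard error.

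The Padi genes were examined first. Padi4 had normalised counts of 22.5 and 39.8 in WT, 9.76 and 10.6 in P2KO, and 3.83 and 4.24 in DKO. Both DKO libraries were thus lower than both P2KO libraries, but the change of -1.31 ± 0.628 on the log2 scale was not called (edgeR adjusted p = 0.404). Padi2 had normalised counts of 88.7 and 58.5 in P2KO and 56.5 and 88.0 in DKO, with a log2 fold change of -0.05. Against WT, Padi4 was lower in DKO, by -2.94 ± 0.513 on the log2 scale (edgeR adjusted p = 2.77e-04), on 4 reads in each DKO library. This is the direction of the label, but P2KO, with Padi4 unedited, was also below WT (-1.63 ± 0.423, edgeR adjusted p = 0.096). The normalised count of Padi2 in WT was 52.9 and 59.2, so Padi2 does not separate the genotypes and they are given as labelled. In the paper's western blots of spleen, PAD2 was missing from P2KO and DKO and PAD4 from DKO. Padi1, Padi3 and Padi6 were not called either, and their log2 fold changes were 0.60, 0.03 and -0.01.

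Off chromosome 4, 92 genes were called higher in DKO than in P2KO and 91 lower, which is 0.471% and 0.466% of the 19517 genes tested there. Over all tested genes, 1.21% were called either way and 2458 genes had an unadjusted p under 0.05. In all called genes but mt-Rnr1 and mt-Rnr2 the DKO and P2KO libraries did not overlap, which a call already favours and which adds no support. Most of these differences were small. The median size of the change was 0.34 (log2) for the genes that rose and 0.41 for those that fell, and 9 of the 92 and 8 of the 91 changed at least 2-fold. Of the rises 88 were protein-coding and 0 lncRNA genes, and of the falls 72 and 11. No share of these types over all tested genes is given here. The median length of merged exons was 5726 nt for the rises and 2678 nt for the falls. For 67 of the 92 rises and 79 of the 91 falls the DKO libraries lay farther from WT than the P2KO libraries did. These genes were chosen on the same DKO and P2KO libraries. Over all tested genes 3.22% were called between DKO and WT and 0.337% between P2KO and WT. The counts of calls depended on single libraries: the rises numbered 28 without DKO 2, 38 without DKO 1, 38 without P2KO 1, 267 without WT 1 and 299 without WT 2, and the falls numbered 37, 31, 72, 220 and 230 in the same order. Without P2KO 2, 65 genes rose and 35 fell, and 10 of the 92 and 14 of the 91 were called whichever library was left out.

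**Figure D1:**
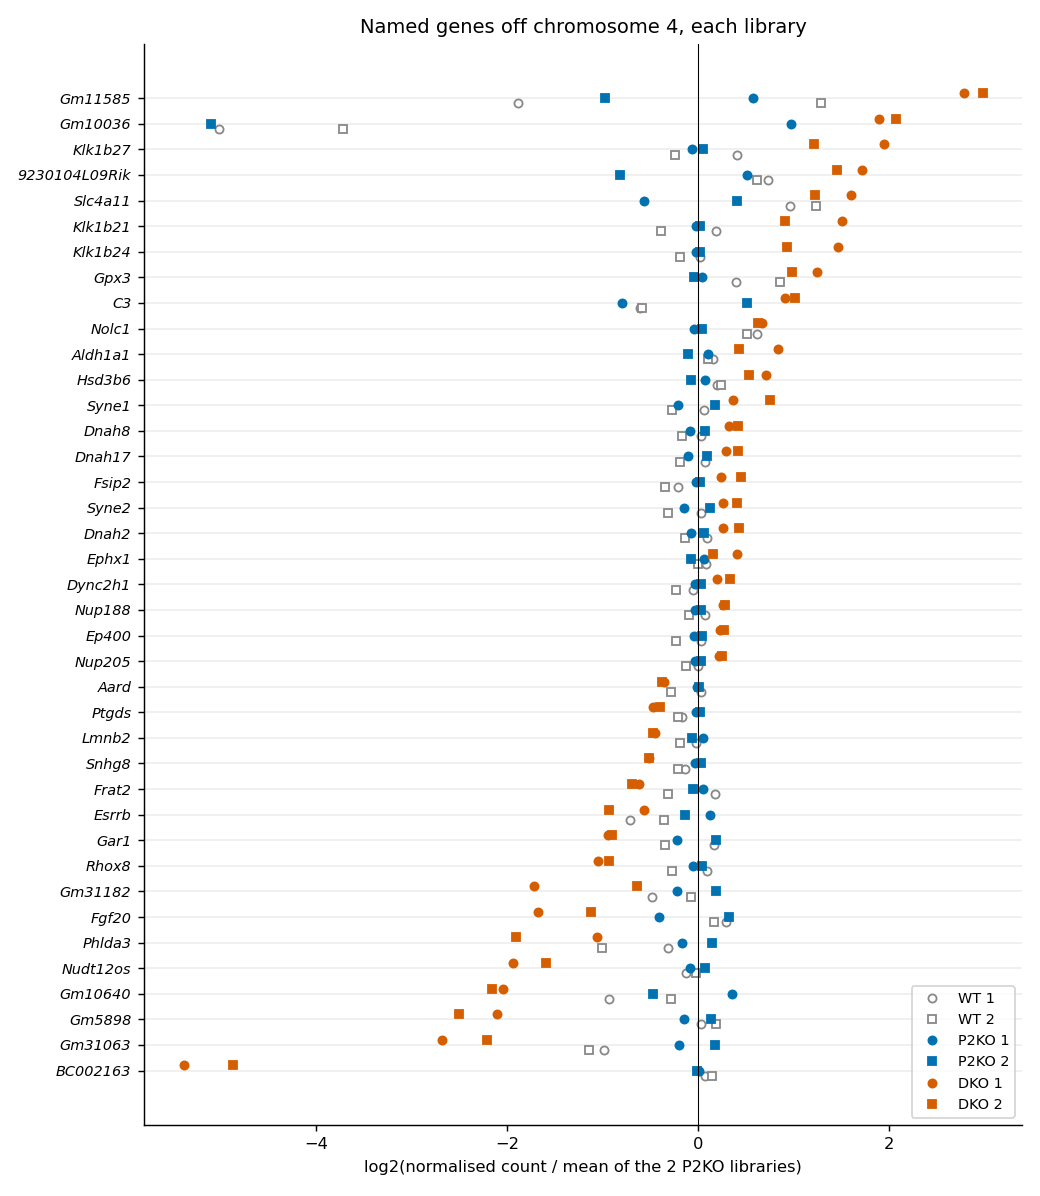
Each row is a called gene off chromosome 4 that the text's rule names, other than Car3, which had 0 counts in P2KO, and those named for lying at the threshold. The x axis is the log2 of a library's normalised count over the mean of the 2 P2KO libraries, circles are replicate 1 and squares replicate 2, and P2KO is blue, DKO orange and WT open grey. The DKO libraries of BC002163 lie about 5 log2 units under P2KO, and for Nolc1 and Gpx3 the WT libraries lie on the DKO side.

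Kallikrein genes of Leydig cells were among the largest rises. Klk1b21, Klk1b24 and Klk1b27 encode closely related serine proteases that lie in 1 cluster on chromosome 7, and each was more than 2-fold higher in DKO. The 250 bases upstream of their start sites in GRCm38.p6 (RefSeq) are shown for Klk1b27 and Klk1b24 because the members that moved are near-copies of each other there. The capitals mark the longest run, of 89 bases, that is the same in all 3 called members; it was found from these 3 genes, and 3 of the 14 promoters of the family in the table hold it (0.00913% of 32851 promoters of all genes).
Klk1b27, chr7:44052040-44052289, plus strand: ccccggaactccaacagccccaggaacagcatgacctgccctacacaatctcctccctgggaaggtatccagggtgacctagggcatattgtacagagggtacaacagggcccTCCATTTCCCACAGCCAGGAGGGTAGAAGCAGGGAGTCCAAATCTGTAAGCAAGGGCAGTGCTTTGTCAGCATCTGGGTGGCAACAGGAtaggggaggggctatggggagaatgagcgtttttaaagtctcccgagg
Klk1b24, chr7:44187986-44188235, plus strand: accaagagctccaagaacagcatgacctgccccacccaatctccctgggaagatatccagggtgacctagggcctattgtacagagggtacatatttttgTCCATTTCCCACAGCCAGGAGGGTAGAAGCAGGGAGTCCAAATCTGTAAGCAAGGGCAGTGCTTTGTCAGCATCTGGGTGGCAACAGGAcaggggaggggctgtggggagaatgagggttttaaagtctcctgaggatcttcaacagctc

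Klk1b27 had normalised counts of 148 and 94.4 in WT, 107 and 116 in P2KO, and 429 and 259.7 in DKO. The change was 1.63 ± 0.182 on the log2 scale (edgeR adjusted p = 1.55e-07). Klk1b21 had 138 and 142 in P2KO against 398 and 264 in DKO (1.25 ± 0.165 on the log2 scale, edgeR adjusted p = 5.56e-06). Klk1b24 had 98.5 and 101 in P2KO against 275 and 191 in DKO (1.23 ± 0.167 on the log2 scale, edgeR adjusted p = 9.11e-06). In all 3 genes both DKO libraries were above every P2KO and WT library, DKO 1 was the higher of the DKO libraries, and the call held whichever library was left out. Of the 12 members of the Klk1 family tested, 3 rose and 0 fell, beside 126 of all 20744 tested genes called higher, with a median log2 fold change of 0.75 beside -0.003 over all tested genes, and 7 had an unadjusted p under 0.05. Klk1b16, Klk1b22, Klk1 and Klk1b5 had log2 fold changes of 1.01, 0.88, 0.81 and 0.69 and were not called. Klk1b8, the member with the highest counts, had 604 and 682 in P2KO and 623 and 641 in DKO, and Klk1b26 and Klk1b9 had log2 fold changes of -0.09 and -0.30, none of them called. Related kallikrein genes can share reads, and whether this shifted counts among them was not tested.

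Of the steroid-producing enzymes of Leydig cells, Hsd3b6 was called, and the other called genes of the list were Ephx1 and Ptgds, which have other roles. Of 21 tested genes of the list, 2 rose and 1 fell, beside 1.21% of all tested genes called either way, and 12 had an unadjusted p under 0.05, beside 2458 of all 20744. The median log2 fold change was -0.01, with 10 genes above 0 and 11 below. Hsd3b6, a 3-beta-hydroxysteroid dehydrogenase of adult Leydig cells, had normalised counts of 1455 and 1319 in P2KO, 2273 and 2014 in DKO, and 1593 and 1644 in WT. It rose by 0.63 ± 0.0721 on the log2 scale (edgeR adjusted p = 2.91e-07), and both DKO libraries were above the other 4. Ephx1, an epoxide hydrolase, rose from 2274 and 2071 to 2878 and 2426 (0.29, edgeR adjusted p = 0.0337), and was not called without P2KO 2 or without DKO 1, with changes from 0.15 to 0.41 when 1 library was left out. Ptgds, which makes prostaglandin D2, fell from 4227 and 4372 to 3097 and 3269 (-0.43, edgeR adjusted p = 1.48e-05). Cyp17a1, Cyp11a1, Star and Insl3 were not called, with log2 fold changes of 0.16, -0.01, 0.27 and -0.17. The receptor for luteinizing hormone, Lhcgr, had 252 and 287 in P2KO and 204 and 193 in DKO (-0.44, edgeR adjusted p = 0.098). The summed counts of the list were 38631 and 35941 in P2KO and 41834 and 36779 in DKO, so they overlapped, and those of the kallikrein list were 1302 and 1422 against 2158 and 1815.

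A few further genes that rose off chromosome 4 are given singly; apart from Aldh1a1 and Gpx3, they were picked after their values had been seen and stand for no tested group. Aldh1a1, which oxidizes retinaldehyde to retinoic acid, had 8042 and 6957 normalised counts in P2KO and 13384 and 10072 in DKO. The change was 0.64 ± 0.0786 on the log2 scale (edgeR adjusted p = 1.12e-06), and with DESeq2 on the 4 libraries of the 2 genotypes it was not called. Gpx3, the secreted glutathione peroxidase, had 75.4 and 71.3 in P2KO, 174 and 145 in DKO, and 96.9 and 133 in WT (1.12 ± 0.182 on the log2 scale, edgeR adjusted p = 1.93e-04). Here the P2KO libraries were the lowest of the 6. Bhmt, which remethylates homocysteine, rose by 0.53, the glutathione transferase Gsta3 by 0.52, the glucuronosyltransferase Ugt1a7c by 0.93, and the fatty acid transporter Cd36 by 0.48. DKO 1 was above DKO 2 in each of these 6 genes.

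Some genes for secreted and matrix proteins were among the calls, picked in the same way and with no count of such genes behind them. Itih2, a plasma-type protein that binds hyaluronan, had 276 and 258 in P2KO and 533 and 405 in DKO (0.81 ± 0.121 on the log2 scale, edgeR adjusted p = 4.17e-05). Ecm1 (0.70), the procollagen protease Adamts2 (0.75), its enhancer Pcolce (0.36), Ltbp4 (0.49) and the collagen gene Col1a2 (0.45) rose as well. Of 42 collagen genes tested, 1 rose and 2 fell, beside 126 and 124 of all 20744 tested genes: Col2a1 fell from 1316 and 1379 to 867 and 992 (-0.54, edgeR adjusted p = 3.45e-05) and Col22a1 from 8253 and 7896 to 6155 and 6169 (-0.39, edgeR adjusted p = 8.32e-05). The complement gene C3 had 62.1 and 154 in P2KO, 204 and 218 in DKO, and 71.0 and 72.2 in WT. The P2KO libraries differed more than 2-fold from each other, and C3 (log2 fold change 1.00, edgeR adjusted p = 6.17e-03) was not called without P2KO 1, DKO 1 or DKO 2. No gene of the macrophage, myoid or endothelial lists was called, out of 11, 8 and 7 tested. At 1.21% of all tested genes called, this says little for lists of this size. Of their genes, 1, 2 and 2 had an unadjusted p under 0.05 in edgeR.

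Car3, a carbonic anhydrase abundant in fat and muscle, was at 0 counts in both P2KO libraries and had normalised counts of 7.66 and 14.8 in DKO and 11.3 and 27.8 in WT. Against a floor of 3 counts per library it was at least 3.52-fold higher in DKO (edgeR adjusted p = 7.41e-03), and it was not called without either P2KO library or without DKO 2. Of the other fat markers, Adipoq had 171 and 175 in P2KO and 174 and 161 in DKO, and Plin1 75.4 and 87.3 against 79.5 and 71.0, neither of them called. The adipose list, of which 5 genes were tested, summed to 305 and 300.2 in P2KO and 325 and 315 in DKO.

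Sertoli cell genes were mostly below their P2KO level, and 2 of them were called. Of 25 tested members of the list 22 had a log2 fold change below 0, beside 10527 of all 20744 tested genes, and 0 rose and 2 fell, beside 124 of all tested genes called lower. The list's median was -0.15 for DKO minus P2KO, -0.04 for DKO minus WT and 0.11 for P2KO minus WT, comparisons that share libraries. Rhox8, a homeobox gene of the X chromosome, had normalised counts of 224 and 239.5 in P2KO, 112 and 122 in DKO, and 247 and 192 in WT. It fell by 0.99 ± 0.151 on the log2 scale (edgeR adjusted p = 7.38e-05), and it was called whichever library was left out. Aard had 2829.5 and 2858 in P2KO and 2230 and 2190.4 in DKO (-0.36 ± 0.0733 on the log2 scale, edgeR adjusted p = 3.89e-03), and was not called without P2KO 2, DKO 1 or DKO 2. Sox9, Amh and Fshr were not called, with log2 fold changes of -0.21, -0.46 and -0.18. The summed counts of the list were 45673 and 47917 in P2KO and 45837 and 41761 in DKO, and DKO 2 was the lowest of the 6 libraries.

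Of 20 tested genes whose symbol begins with Hnrnp, a family of nuclear RNA-binding proteins singled out after its values had been seen, 0 rose and 5 fell, beside 124 of all 20744 tested genes called lower, with a median log2 fold change of -0.12. Of the 5, Hnrnpr lies on chromosome 4, and Hnrnpd, close to the threshold, was called in 2 of the 6 fits without 1 library and not with DESeq2 on all 6 libraries (adjusted p = 0.0811). Hnrnpa0 had 1904 and 2269.6 in P2KO and 1326 and 1232 in DKO, a change of -0.70 ± 0.0991 on the log2 scale (edgeR adjusted p = 1.71e-05). Outside the family, 4 other genes for RNA-binding proteins were picked because they fell. Taf15, an RNA-binding protein that associates with the TFIID complex, had 1033 and 1439 against 858 and 868 (-0.51, edgeR adjusted p = 0.0158). Snrnp70, a protein of the U1 spliceosomal particle, fell by 0.39, the scaffold attachment factor Safb2 by 0.41 and the nuclear poly(A)-binding protein Pabpn1 by 0.73. In Hnrnpa0 and these 4 genes P2KO 2 was above P2KO 1, and with DESeq2 on all 6 libraries Hnrnpa0 and Taf15 were not called (adjusted p = 0.0811 and 0.423). Hnrnpa3, another of the family that fell, has near-identical copies elsewhere in the genome. Lmnb2, a lamin of the nuclear envelope, fell from 5048 and 4654 to 3542 and 3513 (-0.46 ± 0.0635 on the log2 scale, edgeR adjusted p = 1.19e-05), and Frat2, which binds glycogen synthase kinase 3, from 2666 and 2476 to 1673 and 1596 (-0.65, edgeR adjusted p = 1.04e-05). With DESeq2 on all 6 libraries Frat2 was not called.

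Of 16 tested genes of the nucleolus list 1 rose and 1 fell, beside 126 and 124 of all 20744 tested genes. Nolc1, a phosphoprotein that binds small nucleolar ribonucleoproteins, had 593 and 630.2 in P2KO, 973 and 943 in DKO, and 941 and 874 in WT. It rose by 0.65 ± 0.0824 on the log2 scale (edgeR adjusted p = 2.43e-06), and P2KO stood apart from both DKO and WT. Gar1, a core protein of the H/ACA particles that guide pseudouridylation, had 347 and 463 in P2KO and 211 and 217 in DKO (-0.91 ± 0.142 on the log2 scale, edgeR adjusted p = 9.30e-05). Of 15 tested host genes of small nucleolar RNAs 14 had a log2 fold change below 0 (median -0.26), beside 10527 of all 20744 tested genes, and 2 fell: Snhg8 (272 and 283 against 194 and 194, edgeR adjusted p = 0.0245) and Snhg12, which lies on chromosome 4. Snhg8 was called in 2 of the 6 fits without 1 library, and after a correction for gene length its change was -0.46 (adjusted p = 0.0531) in place of -0.52. Among 19 nuclear receptors and their coregulators 2 fell, beside 124 of all 20744 tested genes called lower. Esrrb, an orphan receptor, fell from 290 and 241 to 179 and 139 (-0.74 ± 0.149 on the log2 scale, edgeR adjusted p = 3.89e-03), with 162 and 208 in WT. Esrrb was not called without P2KO 1 or without DKO 2. The other receptor-related gene that fell, Pnrc2, lies on chromosome 4.

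The heavy chains of axonemal dyneins, the motors of the sperm tail, were also singled out after their values had been seen. Of 15 tested genes whose symbols begin with Dnah, 9 rose and 0 fell, with a median log2 fold change of 0.28, beside 126 of all 20744 tested genes called higher, and 7 of the 15 rose after a correction for gene length. Dnah8 had normalised counts of 27624 and 30706 in P2KO, 36497 and 39140.2 in DKO, and 29918 and 26036 in WT. The change was 0.37 ± 0.0602 on the log2 scale (edgeR adjusted p = 1.65e-04). Dnah17 (0.36), Dnah2 (0.34), Dnah14 (0.34) and Dnah7c (0.36) rose by about as much, and Dnah7b and Dnah7c are near-identical copies of each other. With DESeq2 on all 6 libraries Dnah17 was not called (adjusted p = 0.153). Neither Dnah17 nor Dnah2 was called without P2KO 1 or without DKO 2. Fsip2, of the fibrous sheath of the sperm tail, had 11202 and 11522 in P2KO and 13398 and 15529 in DKO (0.35, edgeR adjusted p = 8.66e-04). Syne1 and Syne2, giant proteins of the nuclear envelope, rose by 0.58 and 0.34, and the intraflagellar dynein Dync2h1 by 0.27. The nucleoporins Nup188 and Nup205 rose by 0.27 and 0.24, and Ep400, of a histone acetyltransferase complex, by 0.25. When 1 library was left out, the change ran from 0.37 to 0.79 for Syne1, 0.20 to 0.49 for Syne2 and 0.20 to 0.34 for Dync2h1. With the replicate number as a block, Syne1, Syne2, Dync2h1 and Ep400 were not called. Nup188 was called in 3 of the 6 fits without 1 library, and Nup205 and Ep400 in 2.

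The exons of the called dynein genes add up to 12009 to 26820 nt, and the fold change rose with length across all genes off chromosome 4. Genes with at most 500 nt of merged exons had a median log2 fold change of -0.089, and those over 16000 nt of 0.083. The medians of the 7 length classes rose from each class to the next. Over 16000 nt, 17 of 310 genes rose (5.48%) and 0 fell, whereas up to 500 nt 0 of 756 rose and 3 fell. Against WT the longest class had a median of 0.189 in DKO and 0.103 in P2KO. After a correction for length the class medians lay between -0.007 and 0.006, and 126 genes rose and 105 fell off chromosome 4. The calls of Syne1, Syne2, Dync2h1 and Ep400 were lost, with changes of 0.44, 0.23, 0.20 and 0.19 in place of 0.58, 0.34, 0.27 and 0.25. Dnah8, at 0.27 in place of 0.37, and Fsip2, at 0.26 in place of 0.35, were still called, and the Leydig list had 4 rises in place of 2 and the Hnrnp genes 7 falls in place of 5.

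**Figure D2:**
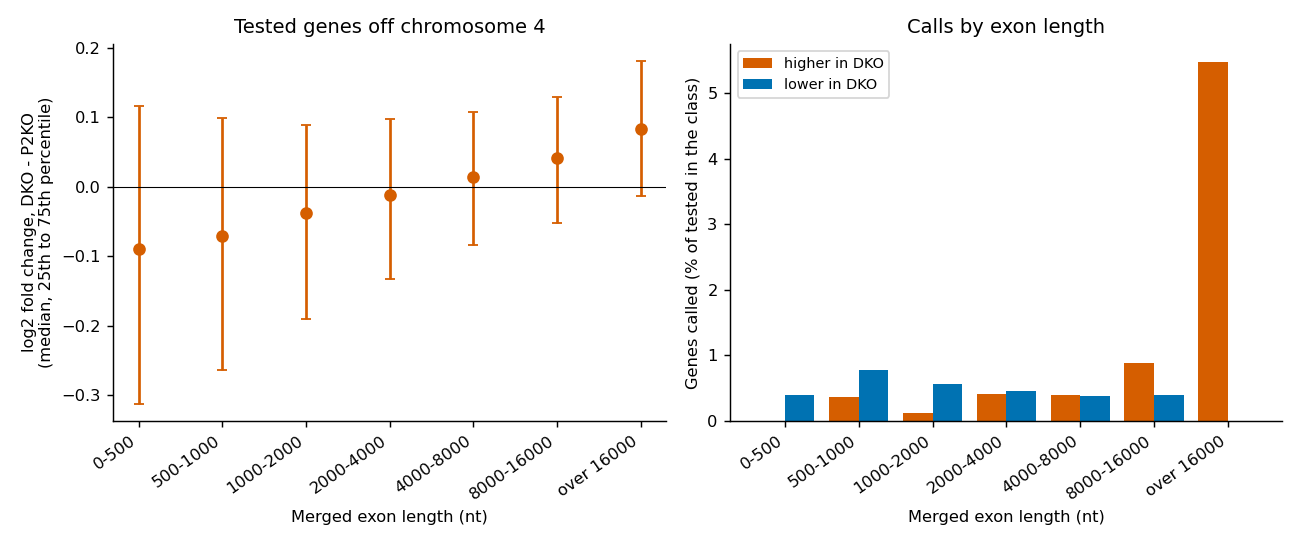
Genes tested off chromosome 4 by the merged length of their exons in nt. On the left, points are the median log2 fold change of DKO minus P2KO in a class and bars run from the 25th to the 75th percentile of its genes; on the right, bars are the percentage of the class called higher (orange) or lower (blue), and the class over 16000 nt has 5.48% higher and 0 lower.

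Ribosomal proteins and complex I were looked at as genes with short transcripts. Of 81 tested genes for cytosolic ribosomal proteins, again chosen after seeing the values, 68 had a log2 fold change below 0 (median -0.10), beside 10527 of all 20744 tested genes, and 3 fell, beside 124 of all called lower. Rps29 went from 1341 and 1631 to 1112 and 1028 (-0.47, edgeR adjusted p = 6.00e-04), and has near-identical copies. Of 48 complex I genes whose symbols begin with Nduf, 1 rose and 1 fell, beside 1.21% of all tested genes called either way, and Ndufs5, which rose, lies on chromosome 4. None of 22 histone genes was called (median -0.15), beside the same 1.21% of all tested genes. On the mitochondrial genome mt-Nd5 rose from 15824 and 14679 to 19295 and 18358 (0.30, edgeR adjusted p = 1.29e-03), and the ribosomal RNAs mt-Rnr1 and mt-Rnr2 were called lower although their libraries overlapped: mt-Rnr2 had 11042 and 19429 in P2KO and 10209.5 and 11185 in DKO, and 10925 and 12667 in WT, so that P2KO 2 alone stood high.

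Few germ cell markers were called, beside 1.21% of all tested genes called either way. None of 16 spermatogonial and 25 spermatocyte genes was called by edgeR. Of these, 2 and 3 had an unadjusted p under 0.05, beside 2458 of all 20744. Calls were too rare over all genes for 0 in such lists to say more. The spermatocyte list summed to 121224 and 121218 in P2KO and 123555 and 121172 in DKO. Of 18 round spermatid genes 2 fell, Spaca1 and Catsper4, beside 124 of all 20744 tested genes called lower. Both lie on chromosome 4, where 5.46% of the tested genes were called. Cenpf, Cenpe, Plk1, Aurka and Mki67, known from dividing cells, were picked after their values had been seen, and how many such genes did not rise was not counted. The changes were small: Cenpf (4156 and 3969.7 against 4925 and 5411, 0.35, edgeR adjusted p = 7.10e-04), Cenpe (0.23), Plk1 (0.25), Aurka (0.23) and the proliferation marker Mki67 (0.28). With the exception of Cenpf, these were called in 2 of the 6 fits that left out 1 library. The lists for cholesterol synthesis and uptake, apoptosis, ERK feedback and immediate early response had 22, 22, 12 and 15 tested genes. None of these genes was called, which at 1.21% over all tested genes says little for lists of this size. By list, 3, 3, 2 and 1 of them had an unadjusted p under 0.05 in edgeR. Of 18 elongating spermatid genes 1 rose, of 30 cilium genes 1, of 30 nuclear transport genes 2, of 24 genes of histone acetyltransferase complexes 1 and of 12 heparan sulfate proteoglycan genes 2, with medians of 0.05, 0.04, 0.06, 0.09 and 0.03, beside 126 of all 20744 tested genes called higher, and none fell. Both of the proteoglycan genes, Sdc3 and Hspg2, lie on chromosome 4.

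The largest fall off chromosome 4 belongs to a copy of a gene on chromosome 4. BC002163, a processed pseudogene on chromosome 16 (chr16:42955631-42955949), and Ndufs5, a subunit of mitochondrial complex I on chromosome 4 (chr4:123712710-123718202, minus strand), are 99.4% identical over the 318 coding bases of Ndufs5. They differ by 2 substitutions, T81C and A105G, counted from the first base of the Ndufs5 start codon with the Ndufs5 base first. A stretch of each is shown, since these 2 bases are what a read can be told apart by within the coding sequence. The first substitution is in capitals, and the second lies 24 bases after it.
Ndufs5, chr4:123715969-123716029, minus strand: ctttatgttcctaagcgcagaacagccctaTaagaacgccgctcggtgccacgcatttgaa
BC002163, chr16:42955681-42955741, plus strand: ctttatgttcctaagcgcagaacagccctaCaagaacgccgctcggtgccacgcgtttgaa

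BC002163 had normalised counts of 282 and 277 in P2KO, 6.71 and 9.54 in DKO, and 295 and 309 in WT, a change of -5.10 ± 0.231 on the log2 scale (edgeR adjusted p = 5.45e-18). Ndufs5 had 71.0 and 84.1 in P2KO, 553 and 561 in DKO, and 89.0 and 75 in WT, a change of 2.85 ± 0.138 on the log2 scale (edgeR adjusted p = 3.88e-17). The 2 genes thus moved in opposite directions, and their sum was 353 and 361 in P2KO and 559 and 570.4 in DKO. Gm5898, a copy on chromosome 7 that is 99.2% identical to Thrap3 over 2033 aligned bases, fell from 130.4 and 158 to 33.5 and 25.4 (-2.27 ± 0.214 on the log2 scale, edgeR adjusted p = 2.89e-09). Thrap3, at 126.2 Mb of chromosome 4, had 2976 and 2979.6 in P2KO and 3086 and 3123 in DKO and was not called. Gm10036, a copy of Rpl11, had 71.8 and 1.06 in P2KO, 136 and 153 in DKO, and 1.13 and 2.78 in WT (1.89 ± 0.381 on the log2 scale, edgeR adjusted p = 3.89e-03). The change of Gm10036 was 6.92 without P2KO 1 and 1.01 without P2KO 2. Here the P2KO libraries were far apart, P2KO 2 being at the level of WT, and the gene was not called without DKO 1 or DKO 2. Rpl11, at 136.0 Mb of chromosome 4, had 3439.8 and 3678 in P2KO and 3175 and 2942 in DKO and was not called (edgeR adjusted p = 0.0843).

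**Figure D3:**
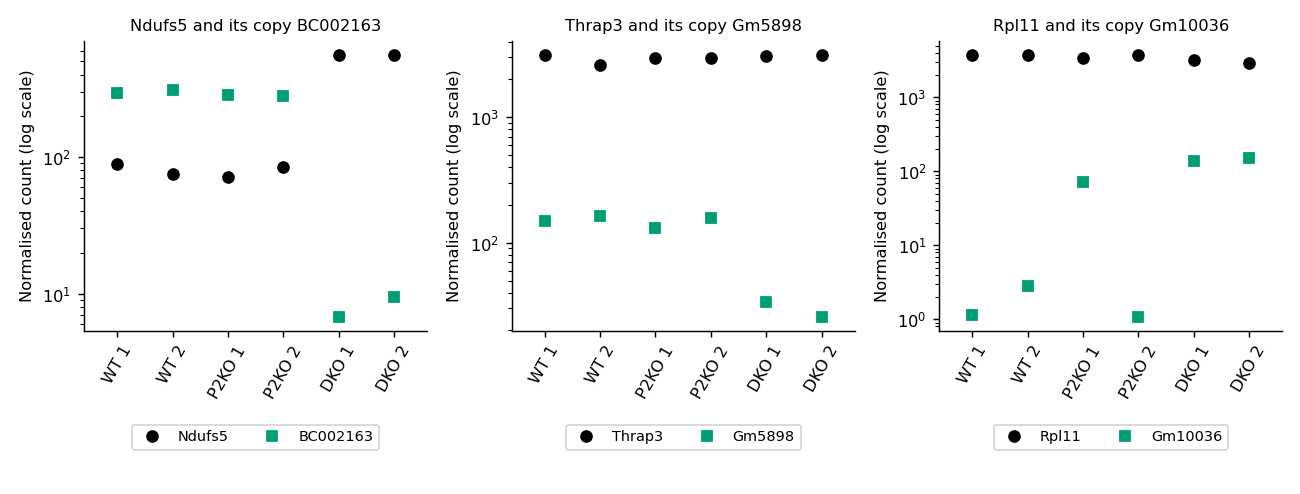
Normalised counts (log scale) of 3 genes of chromosome 4 (black circles) and their near-identical copies on other chromosomes (green squares) in each library. BC002163 and Gm5898 are low in the 2 DKO libraries only, and Gm10036 is at 71.8 in P2KO 1 and at 1.06 in P2KO 2.

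Among the remaining large changes off chromosome 4, the lncRNA gene Nudt12os fell from 145 and 162 to 40.2 and 50.9 (-1.75 ± 0.192 on the log2 scale, edgeR adjusted p = 9.42e-08), with 141 and 151 in WT. 9230104L09Rik rose from 169 and 67.1 to 389 and 324 (1.56 ± 0.190 on the log2 scale, edgeR adjusted p = 1.15e-06). WT was at 196 and 181, so that P2KO 2 alone stood low, and the change was 2.41 without P2KO 1 and 1.08 without P2KO 2. The others had few counts: Gm11585 (6.21 and 2.13 against 28.7 and 32.9), the transporter gene Slc4a11 (9.76 and 19.2 against 44.1 and 33.9), Gm31063 (21.3 and 27.7 against 3.83 and 5.30), Gm10640 (30.2 and 17.0 against 5.75 and 5.30), Phlda3 (46.1 and 57.5 against 24.9 and 13.8), the growth factor gene Fgf20 (34.6 and 57.5 against 14.4 and 21.2) and Gm31182 (56.8 and 75.6 against 20.1 and 42.4). Gm11585, on chromosome 11, is also a copy of a gene of chromosome 4: it is identical over 569 aligned bases to Ppih, which was not called (0.06, edgeR adjusted p = 0.904), and it has other near-identical copies as well. Each of the 7 genes with few counts was not called in at least 2 of the fits that left out 1 library. At the threshold itself, Hnrnpd (adjusted p = 0.0490) was just inside, and Cacna1h and Rps28 (both 0.0515) just outside, by edgeR.

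On chromosome 4, 67 of 1227 tested genes were called (5.46%), 34 higher and 33 lower in DKO, and 26 of them changed at least 2-fold. Between 120 and 130 Mb of GRCm38 21 of 148 tested genes were called (14.2%) and between 130 and 140 Mb 31 of 182 (17.0%). The windows on either side held 2 of 107 and 6 of 135. Below 100 Mb the called genes were Tmem64 (15.3 Mb in GRCm38, the first on the chromosome), Mdn1, Spaca1 and Anp32b, with log2 fold changes of -0.27, 0.30, -0.25 and -0.33, and the last called gene was Pik3cd at 149.6 Mb, a catalytic subunit of phosphoinositide 3-kinase (0.38). Without 1 library the count ran from 43 to 92, with 43 without DKO 2, 46 without DKO 1, 44 without P2KO 2 and 52 without P2KO 1, and with DESeq2 on all 6 libraries, which gave an adjusted p to 6119 genes in all, it was 27.

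**Figure D4:**
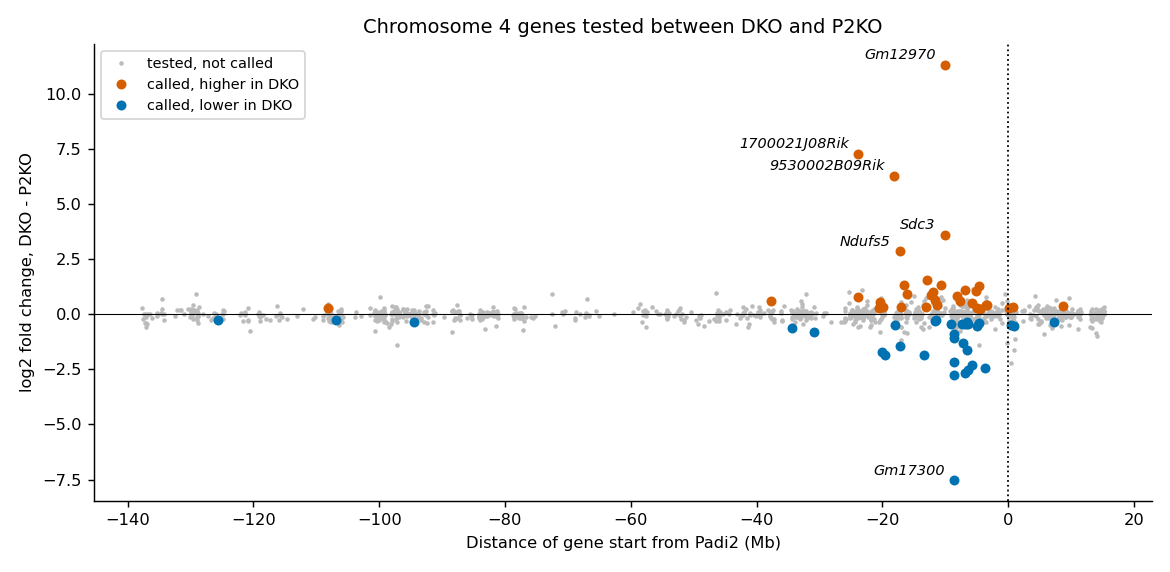
Each point is a tested gene of chromosome 4; the x axis is the distance of its start from that of Padi2 in Mb (dotted line at 0) and the y axis is the log2 fold change of DKO minus P2KO. Grey points were not called, orange points were called higher in DKO and blue points lower, and the 26 called genes that changed at least 2-fold lie from 23.9 to 3.7 Mb before Padi2.

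Before that stretch, 4921539E11Rik (103.2 Mb) had 3170.1 and 3086 in P2KO, 4661 and 4691 in DKO, and 4323 and 4305 in WT, so that P2KO was below both DKO and WT (0.58, edgeR adjusted p = 1.97e-08). Ttc22 (-0.61) and Dmrta2 (-0.80), a transcription factor with a DM domain, followed before 110 Mb. The genes that changed at least 2-fold began at 117.0 Mb with the antisense gene 1700021J08Rik, with at most 1 count in each P2KO library and normalised counts of 97.7 and 92.2 in DKO, which is at least 29.7-fold. The zinc-finger gene Zfp69 fell from 199 and 198 to 69.9 and 51.9 (-1.69, edgeR adjusted p = 1.62e-08), and Gm12888 from 36.4 and 28.7 to 5.75 and 12.7. 9530002B09Rik, with at most 2 counts in P2KO, was at 85.3 and 84.8 in DKO, at least 26.6-fold. Gm12925 fell (-1.42) and 4933435F18Rik rose (1.35, called in 3 of the 6 fits without 1 library) on either side of 124 Mb.

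Between 127 and 131 Mb the top changes in size were the rises of Gm12970 and Sdc3, followed by a fall, that of 1700080G11Rik (-1.86). Csmd2, a large membrane protein with complement-type domains, had 147 and 156 in P2KO and 389 and 496 in DKO (1.54 ± 0.132 on the log2 scale, edgeR adjusted p = 2.57e-10). Phc2, of the polycomb repressive complex, rose from 1232 and 1241 to 2309.6 and 2249.7 (0.88). Sdc3, a heparan sulfate proteoglycan of the cell surface, had 92.2 and 91.5 in P2KO, 1102 and 1144 in DKO, and 89.0 and 98.1 in WT. This was a change of 3.61 ± 0.115 on the log2 scale (edgeR adjusted p = 1.92e-22), and the P2KO libraries lay beside those of WT. Gm12970, antisense within Sdc3, had 0 counts in all WT and P2KO libraries and 325 and 311 in DKO, at least 99.6-fold, and without knowledge of the strand counted its reads cannot be told from those of Sdc3. The lncRNA gene 1700086P04Rik rose by 1.03 and Serinc2 by 1.34.

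From 132 Mb to Runx3 at 135.1 Mb the largest changes were falls. Gm17300 had 213 and 202 in P2KO and 1.92 and 0 in DKO, at least 65.2-fold lower, and it overlaps Rcc1 and Snhg3 on the other strand. Its neighbours Rab42, a small GTPase (148 and 119 against 23.0 and 15.9, -2.77), Gm28874 (-2.15), Trnau1ap (-0.90) and Snhg12 (79.8 and 111 against 46.9 and 41.3, -1.09) all fell, but Snhg12 was not called without P2KO 2 or without DKO 2. The changes were -2.65 for Crybg2, -2.54 for Aunip, which binds Aurora A, -1.63 for 1700021N21Rik and -1.29 for Gm12974, while Sh3bgrl3 rose by 1.11. Runx3, a transcription factor of the core-binding factor family, had 371 and 339.6 in P2KO, 64.2 and 79.5 in DKO, and 401 and 357 in WT (-2.31 ± 0.146 on the log2 scale, edgeR adjusted p = 9.75e-14). Of the 4 core-binding factor genes it was the only one called.

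At 3 called genes from 135.8 to 137.2 Mb the P2KO libraries stood apart from each other, while other genes of this stretch, such as Rpl11 described above, had similar P2KO libraries. Of 4 further genes nearby with at least 20 normalised counts in a P2KO library and at least a 1.5-fold difference between the P2KO libraries, none was called, and in Ephb2 (47.0 and 26.6, with 42.8 and 48.1 in WT) P2KO 2 was the one off the WT level. Myom3, a protein of the sarcomere's M band, had 24.8 and 26.8 in WT, 83.4 and 24.5 in P2KO, and 125 and 109 in DKO (1.07, edgeR adjusted p = 0.0303). Its change was 2.25 without P2KO 1 and 0.50 without P2KO 2. E2f2, a cell cycle transcription factor, had 42.8 and 54.6 in WT, 228 and 50 in P2KO, and 305 and 395 in DKO (1.28, edgeR adjusted p = 3.35e-03). Its change was 2.80 without P2KO 1 and 0.62 without P2KO 2. Gm13003 had 296 and 461 in P2KO and 65.1 and 75.3 in DKO (-2.42, edgeR adjusted p = 2.11e-12). In each, P2KO 1 lay between P2KO 2 and DKO, and P2KO 2 was at the level of WT. Neither Myom3 nor E2f2 was called without P2KO 2 or without DKO 2, and Myom3 was also lost without DKO 1. The called genes nearest to Padi2 were Hspg2, the matrix proteoglycan perlecan, at 137.5 Mb (653 and 617 against 828 and 882, 0.43, edgeR adjusted p = 4.94e-03; 444 and 387 in WT) and Spata21 at 141.1 Mb (29392 and 25007 against 33976 and 31698, 0.27, edgeR adjusted p = 0.0112). Neither was called without P2KO 2, nor Hspg2 without DKO 2 and Spata21 without DKO 1.

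The place of each P2KO library between WT and DKO changed along the chromosome. For this, the 49 genes of chromosome 4 that were called between DKO and WT and differed at least 2-fold were taken, a choice made on the contrast of DKO with WT, and each P2KO library was put on the log2 scale (pseudocount 1) from the WT mean at 0% to the DKO mean at 100%. The 3 stretches were set after seeing the values. For the 21 genes up to Runx3 the median was -3% in P2KO 1 (from -27% to 32%) and 0% in P2KO 2 (from -44% to 13%). For the 5 genes from Myom3 to Hspg2 it was 63% in P2KO 1 (from 17% to 79%) and 2% in P2KO 2 (from -5% to 55%). For the 23 genes from Mrto4 on it was 100% (from -18% to 123%) and 97% (from 7% to 126%). Between 140 and 150 Mb 38 of 135 tested genes were called between DKO and WT and 23 between P2KO and WT, beside the 6 called between DKO and P2KO; between 120 and 130 Mb these counts were 26, 0 and 21 of 148. Over all genes 3.22% were called between DKO and WT and 0.337% between P2KO and WT, and the 3 comparisons share libraries.

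**Figure D5:**
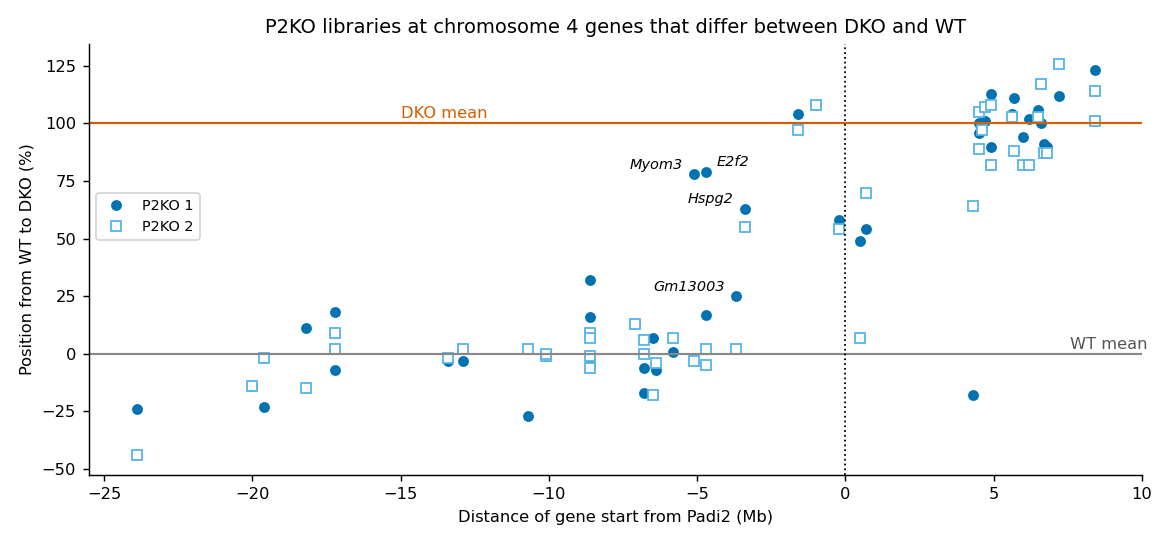
The 49 genes of chromosome 4 that differ at least 2-fold between DKO and WT, by the distance of their start from that of Padi2 in Mb (dotted line at 0). The y axis places P2KO 1 (filled circles) and P2KO 2 (open squares) from the WT mean (0%) to the DKO mean (100%) on the log2 scale; most are near 0% up to Runx3, Myom3 and E2f2 of P2KO 1 are at 78% and 79%, and most genes from Mrto4 on are near 100%.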

How the data were processed

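Testis RNA of 2 mice per genotype was poly(A)-selected and sequenced from a directional library. The authors deposited raw counts per gene, made with Trim Galore and STAR on GRCm38; versions and the strand column are not given in the sources used here, so overlapping genes on opposite strands are uncertain. Genes were placed with GENCODE release M21. The deposited counts were fitted with edgeR 4.0.16 under R 4.3.3 (filterByExpr with a minimum count of 10, TMM, glmQLFit and glmQLFTest on all 6 libraries, 3 residual degrees of freedom; adjusted p under 0.05). The standard error is the absolute log2 fold change over the square root of F. A floor of 3 counts per library bounds folds against absent genes. Near-identical copies are transcripts at least 95% identical over 150 bases and 50% of the shorter one. P-values rest on the spread between 2 animals per genotype, with the spread of each gene drawn toward a trend over all genes. They therefore do not measure the spread of that gene between animals alone. Libraries totalled 21939393 to 27306679 counts.

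Named off chromosome 4 are, among called genes without overlapping libraries, the 10 that rose most and the 10 that fell most, the 5 of lowest p each way and called genes of the lists; on chromosome 4, called genes of at least 2-fold, the first and last, and those nearest Padi2; also the Padi family and the 2 genes on either side of the threshold. Some genes that these rules name are not reported here. Others were named after their values were seen. The comparison, members and gene lists were chosen with earlier results of these data known. Alternatives were other scalings and filters, a prior count of 2, DESeq2 1.42.0, edgeR on 4 libraries, length and GC corrections, a replicate block and leaving out chromosome 4 or each library.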

Additional observations from a re-analysis of the deposited data

How the results depend on the processing

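Called genes off chromosome 4 numbered 92 higher and 91 lower. With no filter on low counts they were 144 and 139, with edgeR on the 4 DKO and P2KO libraries 275 and 217, with DESeq2 on these 4 libraries 159 and 67 (70.4% higher), and with DESeq2 on all 6 libraries 82 and 46 (64.1% higher, against 50.3% in edgeR). On chromosome 4 the 67 calls became 27 with DESeq2 on all 6 libraries and 28 on the 4. Leaving out 1 library gave from 28 to 299 higher and from 31 to 230 lower off chromosome 4, and from 43 to 92 on it. DESeq2 gave an adjusted p to 6119 genes with 6 libraries and to 4694 with 4, against 20744 in edgeR. Otherwise the cause of these differences was not tested. The sample titles do not say whether the replicate numbers pair the animals. The deviations of same-numbered DKO and P2KO libraries correlated at -0.0502. With 2 libraries per genotype the other pairings give the same size by construction, so this cannot settle it. With the replicate number as a block 58 genes were higher and 73 lower off chromosome 4 and 58 were called on it. Over the 79 named genes and the alternatives that gave a value, the side of the threshold was kept 1195 times, lost 125 times and gained 17 times, and no called direction turned. Genes under the minimum count of 10 were not tested.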
